A study of Mus musculus with 37 samples.

Results

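Neuropeptide genes encode precursor proteins that neurons cut into short signalling peptides. The set described here held 10 of them, namely Npy, Sst, Cck, Penk, Tac1, Pdyn, Vip, Adcyap1, Crh and Nts. They were chosen by gene symbol, and all 10 were found among the 29955 symbols of a table of cerebellar RNA levels. The study asked what loss of the histone methyltransferase MLL4 does in the mouse cerebellum. RNA came from C57BL/6 mice that carried floxed Mll4 alleles without deletion (Mll4f/f, called WT), or a brain-specific knockout (Mll4 BSKO, called KO). At 1 month each genotype had 3 libraries, and at 4 months each had 1. The sources used here name neither the driver of the deletion nor the animals behind a library, so p-values reflect library-to-library spread alone, which may be technical.

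Neuropeptides are made from large precursors that are cut by prohormone convertases in dense core granules, trimmed by carboxypeptidase E and often amidated at the end. They are released beside classical transmitters and act mostly on receptors coupled to G proteins. In the cerebellum, granule and Purkinje neurons signal mainly by glutamate and GABA. Peptides there are found in subsets of interneurons such as Golgi cells, in the deep nuclei, and in fibres that enter from the brainstem, such as the climbing fibres of the inferior olive that carry corticotropin-releasing hormone. In the forebrain, somatostatin, neuropeptide Y, vasoactive intestinal peptide and cholecystokinin are classical markers of cortical interneurons.

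Promoters of Sst, Tac1 and Nts are shown, because Sst had the highest mean of the 10 over all libraries (53.0 FPKM) and, with Crh, these genes differed most between KO and WT at 1 month on the log2 scale. The table of RefSeq promoters (build GRCm38.p6) matched 8 of the 10 symbols, and Crh and Penk were not matched. Each window runs from 250 bases before the start of the gene to 50 bases after it. Capitals mark the cyclic AMP response element TGACGTCA, the site of the activity-regulated factor CREB, or its core TGACG, searched on both strands (CGTCA on the other strand). The Sst window lies on the minus strand at chr16:23890795-23891094, Tac1 on the plus strand at chr6:7554811-7555110 and Nts on the minus strand at chr10:102490369-102490668.
Sst: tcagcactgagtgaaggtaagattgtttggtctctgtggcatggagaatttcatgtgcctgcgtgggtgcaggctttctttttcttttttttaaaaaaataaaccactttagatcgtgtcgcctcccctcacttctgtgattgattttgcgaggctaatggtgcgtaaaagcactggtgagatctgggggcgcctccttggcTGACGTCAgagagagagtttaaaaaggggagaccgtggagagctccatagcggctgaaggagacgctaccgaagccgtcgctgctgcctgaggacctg
Tac1: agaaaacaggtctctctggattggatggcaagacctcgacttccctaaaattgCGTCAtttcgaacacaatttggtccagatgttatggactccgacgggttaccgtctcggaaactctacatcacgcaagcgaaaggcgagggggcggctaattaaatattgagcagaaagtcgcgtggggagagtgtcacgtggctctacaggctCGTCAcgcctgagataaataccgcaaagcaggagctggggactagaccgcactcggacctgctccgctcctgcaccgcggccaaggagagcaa
Nts: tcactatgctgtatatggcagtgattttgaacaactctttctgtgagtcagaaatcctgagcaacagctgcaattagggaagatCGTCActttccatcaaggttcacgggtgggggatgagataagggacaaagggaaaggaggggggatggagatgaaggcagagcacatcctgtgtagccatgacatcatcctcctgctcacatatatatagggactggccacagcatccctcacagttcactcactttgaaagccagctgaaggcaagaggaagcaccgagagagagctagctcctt

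The full element began 48 bases before the start of Sst and contains a core on each strand, which overlap. Among the 8 matched genes Sst alone held the full element, which occurred in 1.79% of the 32851 promoter windows in the table. A core was found in 6 of the 8 genes. Counted by window and not by gene, 20.8% of all windows held a core, and some genes have more than 1 window. Cores began 197 and 43 bases before the start of Tac1, 166 bases before that of Nts, 47 before that of Cck and 79 before that of Vip. Adcyap1 has 2 windows that overlap and share 1 core, 91 bases before one start and 242 before the other. These matches are descriptions of letters and were not measured as binding sites.

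Before the members are compared, the libraries need a description. Between 19570 and 20433 genes had a value above 0. Values are FPKM, fragments scaled by transcript length and by library size, so absolute depth is unknown. Relative to WT replicate 1, depth read from low values lay between 0.732 (WT replicate 3) and 1.20 (KO replicate 2). The targeted gene, listed as Mll2 and a former name of both Kmt2d and Kmt2b in the annotation, was at 18.2, 19.9 and 22.3 FPKM in WT. KO replicates 1 and 2 held 12.7 and 13.6, whereas the library labelled KO replicate 3 held 23.5. At 4 months Mll2 was at 46.6 in the WT library and at 16.6 in the library labelled KO. The summed FPKM of 12 granule neuron markers was 1724 to 1775 in WT at 1 month, 343, 338 and 1171 in KO replicates 1 to 3, 1125 in WT at 4 months and 83.1 in the library labelled KO at 4 months. All 8 markers of forebrain cortex were above 0 in that last library and summed to 150 FPKM, against 2.43 to 3.57 in the other 7, so its content goes against the tissue label.

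**Figure D1:**
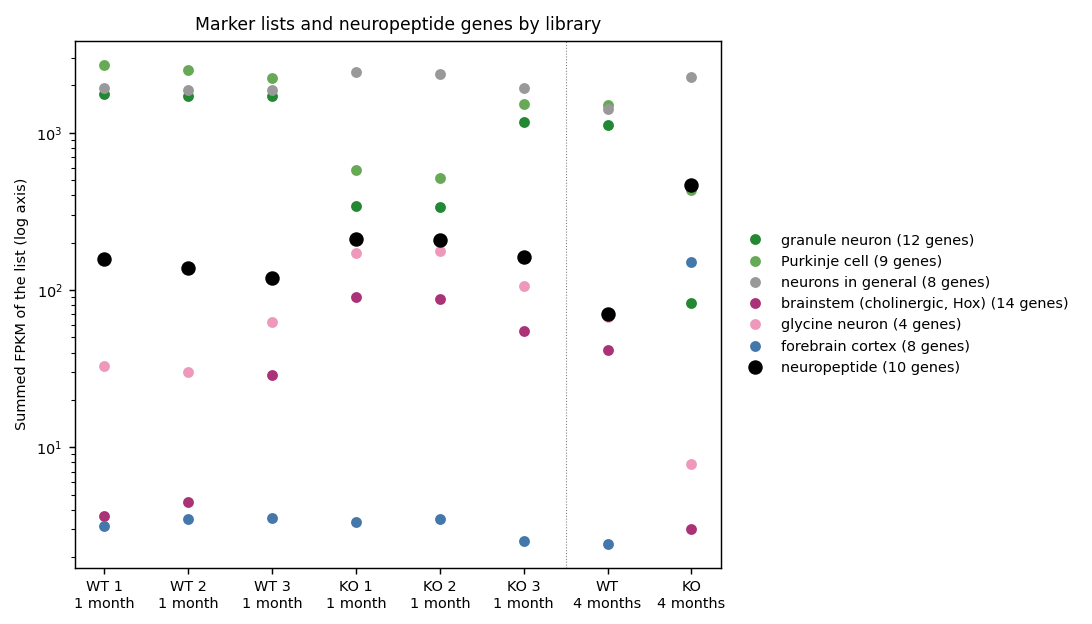
Summed FPKM (log axis) of marker lists and of the 10 neuropeptide genes, 1 point per library and list. The library labelled KO at 4 months is high in forebrain cortex markers (150 FPKM) and low in granule neuron markers (83.1), and KO replicates 1 and 2 at 1 month are low in granule neuron markers and high in brainstem markers (89.7 and 87.5).

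All 10 genes were detected in every library, over a wide span of levels. At 1 month the most abundant in WT was Penk, the precursor of the enkephalins, at 46.0 ± 0.790 FPKM (SD, n = 3). Cck, the precursor of cholecystokinin, was at 31.0 ± 10.8, Sst, the precursor of somatostatin, at 29.1 ± 0.947 and Npy, the precursor of neuropeptide Y, at 16.3 ± 6.02. The spreads of Cck and Sst overlapped. Below these stood Tac1, the precursor of substance P and neurokinin A, at 6.43 ± 1.66 FPKM. Adcyap1, the precursor of PACAP, was at 5.11 ± 0.574 and Nts, the precursor of neurotensin, at 2.01 ± 0.409. The spreads of Tac1 and Adcyap1 overlapped. Crh, the precursor of corticotropin-releasing hormone, was at 1.08 ± 1.14, Pdyn, the precursor of the dynorphins, at 0.972 ± 0.723 and Vip, the precursor of vasoactive intestinal peptide, at 0.668 ± 0.270, and these 3 did not differ beyond their spread.

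The order differed between groups. Penk was the highest of the 10 in every WT library, at both ages, and in the library labelled KO replicate 3, whereas Sst was the highest in KO replicates 1 and 2. In the library labelled KO at 4 months the order was led by Cck, Sst and Npy, ahead of Penk. Penk made up 29.8%, 33.0% and 37.8% of the summed FPKM of the 10 genes in the WT libraries at 1 month and 45.7% in WT at 4 months, but 9.16% in the library labelled KO at 4 months. Sst made up 35.8%, 37.1% and 26.2% in KO replicates 1 to 3 at 1 month and 19.2%, 20.5% and 23.9% in WT. The sum itself was 157, 139 and 119 FPKM in WT and 210, 208 and 162 in KO at 1 month, and 70.0 in WT and 463 in KO at 4 months.

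**Figure D2:**
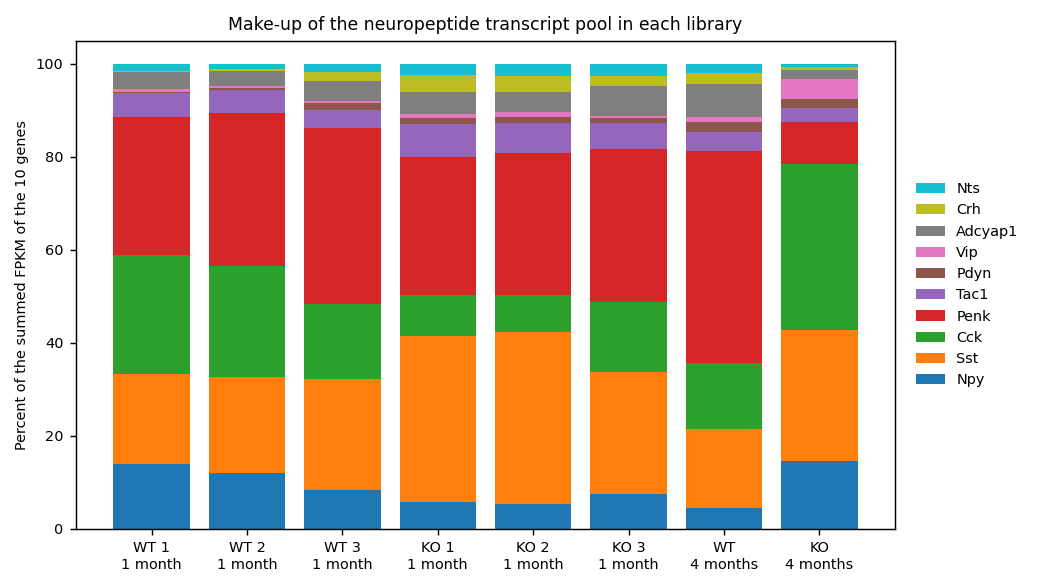
Percent of the summed FPKM of the 10 neuropeptide genes held by each gene, 1 bar per library. Penk holds the largest share in all 4 WT libraries, Sst in KO replicates 1 and 2 at 1 month, and Cck (35.6%) in the library labelled KO at 4 months.

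The first comparison set KO against WT at 1 month. Sst, Crh, Nts, Tac1, Adcyap1 and Penk were higher in each of the 3 KO libraries than in any WT library, by 1.30-fold for Penk to 5.61-fold for Crh in the means. Pdyn and Vip had higher means in KO with overlapping libraries, and Npy and Cck had lower means with overlapping libraries. None of the 10 passed an adjusted p of 0.05 in limma, run over 14847 genes on log2(FPKM + 1) with Benjamini-Hochberg adjustment, where 0.0606% of all genes passed (0.0471% higher and 0.0135% lower). At an unadjusted p under 0.05 limma counted 8 of the 10, all higher, against 13.9% of all genes higher and 17.8% lower. Groups without overlap were found in 6 of 10, all with KO above WT, against 15.2% of all genes in that direction and 20.5% in the other. The median log2 difference was 0.82 over the 10 genes and -0.04 over all genes tested. Pdyn and Vip had WT means under 1 FPKM, so they passed the filter, a mean of at least 1 FPKM, through the KO libraries. They had to be higher there, yet both are in the count of 8 and in the median. In bulk tissue, more cells of a type and more RNA per cell cannot be told apart.

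**Figure D3:**
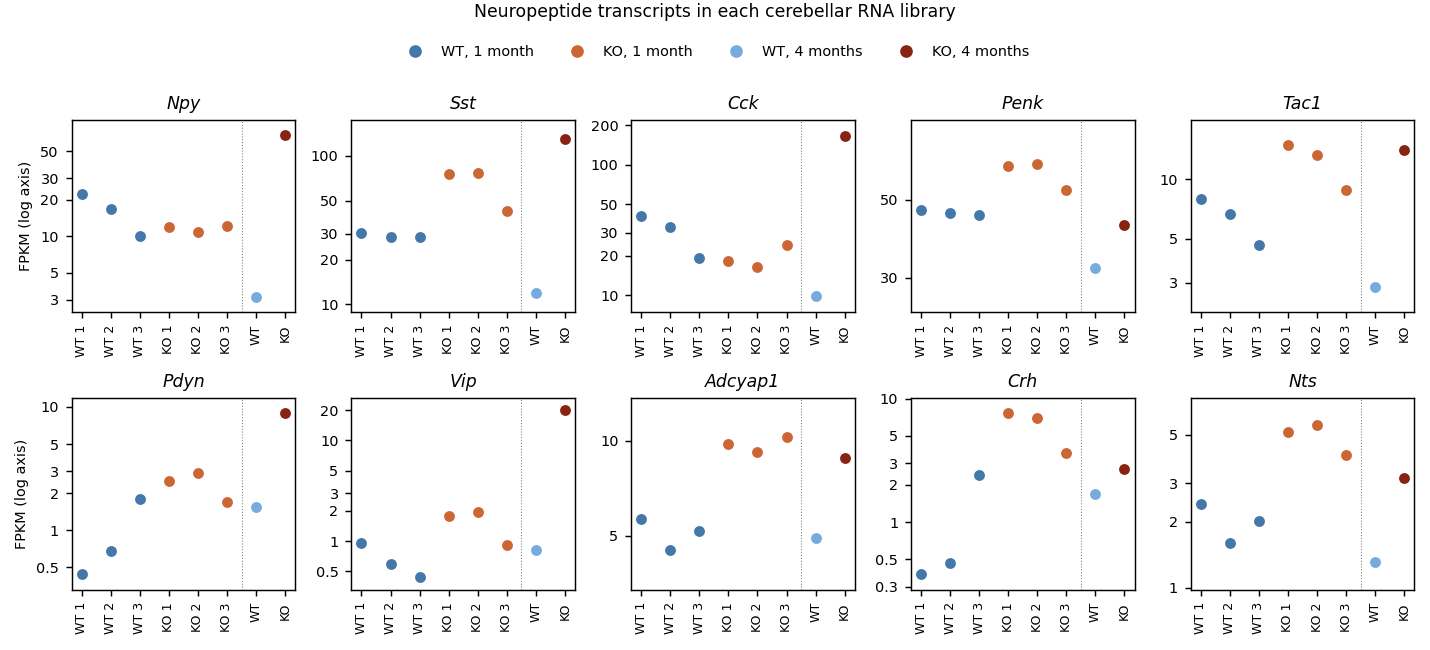
FPKM of each neuropeptide gene in the 8 libraries, 1 point per library, on log axes whose range differs between panels. Sst, Penk, Tac1, Adcyap1, Crh and Nts have all 3 KO libraries above all 3 WT libraries at 1 month, and Npy, Sst, Cck, Pdyn and Vip are highest in the library labelled KO at 4 months.

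Somatostatin inhibits the release of hormones and transmitters. Sst read 30.2, 28.5 and 28.5 FPKM across the WT libraries and 75.1, 77.1 and 42.3 across KO replicates 1 to 3. The WT libraries lay close together, KO replicates 1 and 2 stood far above them, and the library labelled KO replicate 3 lay between. The mean was 64.8 ± 19.5 in KO against 29.1 ± 0.947 in WT (SD, n = 3 each), with a log2 difference of 1.08 (SE 0.23; adjusted p = 0.0644, limma). An exact two-sided permutation test of FPKM gave p = 0.1, the smallest that 3 against 3 libraries allow.

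Crh, which in the cerebellum is known from the climbing fibre system, had the largest difference of the 10. It read 0.380, 0.469 and 2.39 FPKM across the WT libraries and 7.64, 6.90 and 3.64 across KO. WT replicate 3 lay nearer to the library labelled KO replicate 3 than to the other WT libraries. The log2 difference was 1.84 (SE 0.40; adjusted p = 0.0667, limma). The values of its receptor gene Crhr1 lay lower in KO. Crhr1 read 31.7, 33.6 and 29.7 FPKM across the WT libraries and 11.5, 12.2 and 26.2 across KO (log2 difference -0.99, adjusted p = 0.0848, limma), without overlap.

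Neurotensin and PACAP showed the tightest separations. Nts read 2.42, 1.60 and 2.01 FPKM across the WT libraries and 5.12, 5.55 and 4.02 across KO, with a log2 difference of 0.97 (SE 0.17; adjusted p = 0.0596, limma). Adcyap1 read 5.65, 4.51 and 5.18 across WT and 9.81, 9.20 and 10.3 across KO, with a log2 difference of 0.82 (SE 0.12; adjusted p = 0.0596, limma). For Adcyap1 alone among the 6 separated genes the library labelled KO replicate 3 was the highest of its group.

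Among the opioid and tachykinin precursors, Penk was nearly constant within WT, at 46.8, 45.9 and 45.2 FPKM, and stood at 62.4, 63.3 and 53.5 in KO. Its difference was the smallest of the 6 separated genes, at 0.37 on the log2 scale (SE 0.10; adjusted p = 0.0779, limma). Tac1 read 7.94, 6.69 and 4.65 FPKM across the WT libraries and 14.96, 13.3 and 8.86 across KO (log2 difference 0.85, SE 0.23; adjusted p = 0.0801, limma). The lowest KO library exceeded the highest WT library by less than the spread within either group. Pdyn read 0.440, 0.679 and 1.80 FPKM across the WT libraries and 2.53, 2.94 and 1.69 across KO, so WT replicate 3 was above the library labelled KO replicate 3 (log2 difference 0.82, adjusted p = 0.111, limma).

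Npy, Cck and Vip, like Sst described above, are classical markers of cortical interneurons. Npy read 22.0, 16.7 and 10.01 FPKM across the WT libraries and 11.9, 10.9 and 12.04 across KO. Cck levels were 40.4, 33.3 and 19.2 for WT, against 18.4, 16.4 and 24.4 for KO. For both, WT replicate 3 was far below the other WT libraries and within or near the range of KO. The log2 differences were -0.39 (SE 0.25; adjusted p = 0.323) for Npy and -0.58 (SE 0.28; adjusted p = 0.192) for Cck in limma, with 95% intervals of -0.98 to 0.21 and -1.24 to 0.07. Vip read 0.966, 0.597 and 0.441 FPKM across the WT libraries and 1.77, 1.93 and 0.919 across KO, overlapping (log2 difference 0.60, adjusted p = 0.133, limma).

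The calls depended on the library labelled KO replicate 3. Without that library limma called 7 of the 10 genes, all higher, namely Sst, Nts, Penk, Adcyap1, Crh, Tac1 and Vip, where 14.6% of all genes were called higher and 20.2% lower. At an unadjusted p under 0.05 the counts were 8 higher and 1 lower, against 20.1% and 26.9% of all genes. Vip and Pdyn, with WT means of 0.668 and 0.972 FPKM, passed the filter through KO here too and had to be higher there. Vip is in the count of 7, and both are in that of 8. The log2 differences were then 1.36 for Sst (adjusted p = 0.000241), 2.12 for Crh (0.0119), 1.08 for Nts (0.00508), 1.05 for Tac1 (0.0123), 0.78 for Adcyap1 (0.00599), 0.44 for Penk (0.00598) and 0.79 for Vip (0.0235), all from limma with Benjamini-Hochberg adjustment. Over all alternative settings the adjusted p ran from 0.000136 to 0.251 for Sst and Crh and from 0.00373 to 0.270 for Vip. For the other 4 the lowest was 0.000346 to 0.000715 and the highest 0.245 to 0.273.

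**Figure D4:**
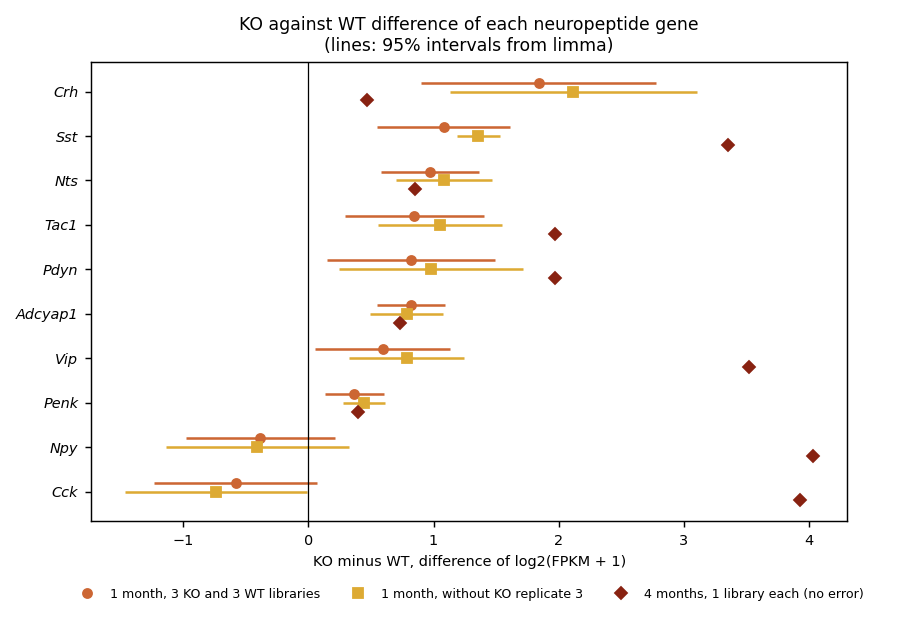
Difference of log2(FPKM + 1) between KO and WT for each neuropeptide gene. Circles (all 6 libraries of 1 month) and squares (without KO replicate 3) carry 95% intervals from limma, and diamonds are the single pair of 4 months, with no error. Npy and Cck lie below 0 at 1 month (-0.39 and -0.58) and near 4 in the 4-month pair (4.04 and 3.93).

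Markers of other cells moved with these values. All 14 brainstem markers of cholinergic and Hox-expressing neurons were in the table, and their sum was 3.64, 4.46 and 28.9 FPKM in WT and 89.7, 87.5 and 54.6 in KO at 1 month. Of these markers, 1 and 3 were at 0 in WT replicates 1 and 2, and none in the other libraries of that age. WT replicate 3, the highest WT library by this sum, was also the highest WT library for Crh and Pdyn and the lowest for Npy, Cck, Penk, Tac1 and Vip. Glycine neuron markers (4 of 4 in the table) summed to 30.3 to 63.0 FPKM in WT and 105 to 177 in KO, and monoamine neuron markers (9 of 9) to 7.04 to 15.2 and 20.8 to 53.9. Purkinje cell markers (9 of 10) summed to 2228 to 2712 in WT and 513 to 1522 in KO, and cerebellar interneuron markers (7 of 8) to 428 to 530 and 276 to 411. The interneuron markers did not move as one: Pvalb averaged 387 and 216 FPKM, whereas Nxph1, Sorcs3 and Lgi2 were higher in KO without overlap, and the median log2 difference of the 7 was 0.24. Markers of neurons in general (8 of 8) summed to 1867 to 1919 in WT and 1926 to 2453 in KO. They did not move as one either, and their median log2 difference was 0.09. Rbfox3 averaged 87.1 FPKM in WT and 37.1 in KO, and Stmn2 183 and 137, both lower without overlap. Tubb3, Nefl and Nefm were higher in KO without overlap. Unipolar brush cell markers (3 of 3) summed to 97.7 to 102 and 31.2 to 69.3, choroid plexus markers (7 of 7) to 563 to 743 in WT and 217, 210 and 1107 in KO replicates 1 to 3, and microglia markers (10 of 10) to 77.4 to 98.6 and 183 to 239. Their part in the differences of the neuropeptide genes was not tested.

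Receptors for the 10 peptides were followed as a list of 24 genes, of which 15 passed the filter at 1 month, 4 of them (Npy2r, Oprk1, Tacr1 and Tacr3) through KO alone. None passed an adjusted p of 0.05. At an unadjusted p under 0.05 limma counted 9 higher and 1 lower, against 13.9% and 17.8% of all genes, and the median log2 difference was 0.56. The 4 that passed through KO had to be higher there to be tested, and the counts and median include them. Groups without overlap were found for 8 of the 15 with KO higher and 2 with KO lower, against 15.2% and 20.5% of all genes. The 3 classical opioid receptors were among those higher without overlap, of which Oprk1 had passed the filter through KO alone. Oprm1, the mu receptor, read 3.09, 2.21 and 2.50 FPKM across the WT libraries and 9.11, 11.1 and 5.29 across KO (log2 difference 1.36, adjusted p = 0.0596, limma). Oprd1, the delta receptor, was at 1.15 ± 0.484 in WT and 4.05 ± 1.64 in KO, and Oprk1, the kappa receptor, at 0.757 ± 0.349 and 2.18 ± 0.167 (SD, n = 3 each).

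Among other receptors, Tacr1, the receptor for substance P, averaged 0.635 ± 0.00936 FPKM in the WT libraries and 1.66 ± 0.344 in KO, and Npy2r at 0.434 ± 0.148 and 1.62 ± 0.454 (SD, n = 3 each). The most abundant receptor was the neurotensin receptor Ntsr2, known from astrocytes, at 59.6 ± 20.2 and 94.7 ± 16.7. Adcyap1r1, the PACAP receptor, was at 27.2 ± 2.60 and 36.7 ± 4.51, and Sstr3 was lower in KO without overlap, at 4.25 ± 0.785 and 3.33 ± 0.374. Without KO replicate 3 limma called 9 receptors higher and 1, Crhr1, lower, where 14.6% and 20.2% of all genes were called. Receptors with WT means under 1 FPKM could enter that fit only through KO.

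**Figure D5:**
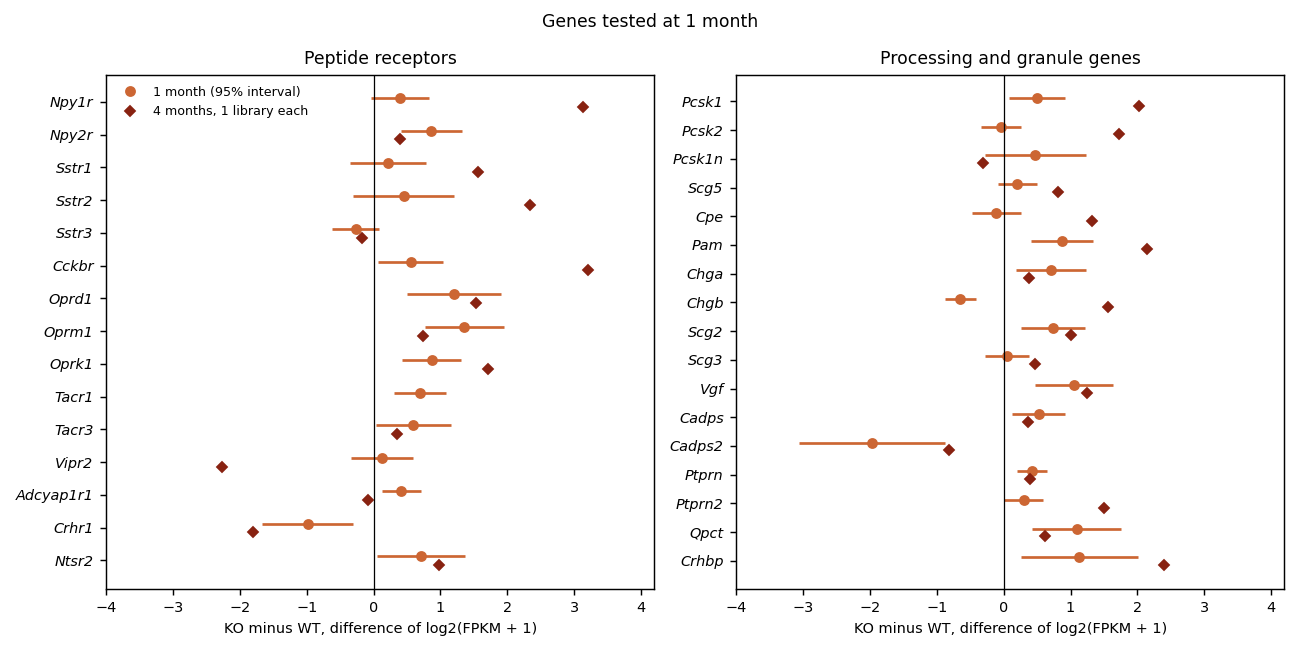
Difference of log2(FPKM + 1) between KO and WT for peptide receptors (left) and for genes of peptide processing and granules (right) that were tested at 1 month. Circles are 1-month differences with 95% intervals from limma and diamonds the single 4-month pair. Crhr1 (-0.99) and Cadps2 (-1.97) lie furthest below 0 at 1 month, and Npy1r (3.14) and Cckbr (3.20) furthest above 0 in the 4-month pair.

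Genes that make and store peptides, a list of 17, summed to 1381 to 1504 FPKM in WT and 1311 to 1562 in KO at 1 month. Cpe, which encodes carboxypeptidase E, averaged 452 ± 51.8 FPKM in the WT libraries and 419 ± 39.0 in KO, and the convertase gene Pcsk2 at 44.4 ± 6.47 and 42.8 ± 1.57 (SD, n = 3 each). All 17 genes of this list were tested, 1 of them (Crhbp) through KO alone, and none passed an adjusted p of 0.05. At an unadjusted p under 0.05 limma counted 10 higher and 2 lower, with all genes at 13.9% and 17.8%, and a median log2 difference of 0.47. Crhbp had to be higher in KO to be tested. Pam, the amidating enzyme, was at 25.2 ± 4.37 and 47.5 ± 10.3, and Vgf, a granule protein, at 17.8 ± 2.61 and 39.3 ± 12.3. Ptprn was at 39.7 ± 0.691 and 53.6 ± 4.15, and Qpct, which closes N-terminal glutamine into pyroglutamate, at 2.58 ± 0.620 and 6.90 ± 2.62.

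The 2 genes counted lower were Chgb and Cadps2, both without overlap. Chgb, a granin, read 211, 193 and 199 FPKM across the WT libraries and 132, 125 and 126 across KO (log2 difference -0.65, adjusted p = 0.0596, limma). Cadps2, a factor of dense core granule release that is abundant in granule neurons, read 159, 147 and 198 across WT and 27.1, 28.0 and 96.0 across KO (log2 difference -1.97, adjusted p = 0.0693, limma). As for the granule neuron markers, the library labelled KO replicate 3 was the highest of its group. Without KO replicate 3 limma called 10 genes of the list higher and both of these lower (all genes, 14.6% and 20.2%). Crhbp, with a WT mean of 0.664 FPKM, entered that fit through KO too and had to be higher there.

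Of 35 other neuropeptide precursors, 14 passed the filter, 3 of them (Tac2, Calcb and Uts2) through KO alone. None passed an adjusted p of 0.05, and limma counted 10 higher and 0 lower at an unadjusted p under 0.05 (all genes, 13.9% and 17.8%), with a median log2 difference of 0.98. Tac2, Calcb and Uts2 had to be higher in KO to be tested. Cartpt, the precursor of CART peptide, read 1.51, 1.32 and 2.14 FPKM across the WT libraries and 5.78, 6.15 and 4.65 across KO. Trh, the precursor of thyrotropin-releasing hormone, read 0.22, 0.30 and 5.63 across WT and 8.62, 8.30 and 7.94 across KO, again with WT replicate 3 far above its group. Npb was at 1.104 ± 0.174 and 2.70 ± 0.685, and Nppc, the precursor of C-type natriuretic peptide, at 4.89 ± 1.49 and 9.62 ± 2.67 (SD, n = 3 each).

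The 4-month pair showed a different pattern. Vip was at 0.825 FPKM in WT and 20.0 in the library labelled KO, Npy at 3.18 and 67.5, Cck at 9.91 and 165, and Sst at 11.9 and 131. These are 24.2-fold, 21.2-fold, 16.7-fold and 11.01-fold differences. Pdyn was at 1.53 and 8.93 FPKM and Tac1 at 2.84 and 14.0. Smaller differences were seen for Nts, at 1.31 and 3.16, Adcyap1, at 4.94 and 8.86, Crh, at 1.68 and 2.70, and Penk, at 32.0 and 42.4. There is 1 library per genotype, so no error can be given. A log2 difference of at least 1 was reached by 6 of the 10, all higher, against 9.57% of all genes higher and 11.2% lower, and the median was 1.97 over the 10 genes and -0.01 over all genes. Vip, under 1 FPKM in WT, passed the filter of this pair, a mean of at least 1 FPKM, through the library labelled KO. It therefore had to be higher there, yet it is in the count and the median.

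For part of the genes, WT and the library labelled KO at 4 months stood at the ends of the range. Npy, Sst, Cck, Penk, Tac1 and Nts had their lowest value of the 8 in the WT library. The share of all genes lowest there was not counted, so this shows nothing particular to these genes. The library labelled KO was the highest for 5 (Npy, Sst, Cck, Pdyn and Vip), where 17.1% of all genes had their highest value. Compared with the highest of the other 7 libraries, it held 10.3 times as much Vip, 4.09 times as much Cck, 3.07 times as much Npy, 3.04 times as much Pdyn and 1.69 times as much Sst. For the other 5 genes it lay below the highest 1-month KO library.

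Markers of forebrain cortex moved with these values. Neurod6 was at 33.2 FPKM in the library labelled KO at 4 months and at 1.60 in WT, and Tbr1 at 31.2 and 0.16. In WT at 4 months 2 of the 8 markers (Emx2 and Fezf2) were at 0. Brainstem markers summed to 41.6 FPKM in WT, with 0 of 14 at 0, and to 3.01 in the library labelled KO, with 9 of 14 at 0, among them all 7 Hox genes. Purkinje cell markers summed to 1502 and 431. Striatal markers (7 of 7 in the table) summed to 49.2 in WT and 73.1 in the library labelled KO. Hypothalamic markers (9 of 9) summed to 2.098 and 0.896, near the floor in both. Of these, 4 were at 0 in WT and 5 in the library labelled KO (Hcrt, Agrp, Avp, Oxt and Otp), with Hcrt and Oxt at 0 in both. The part of tissue content in the 4-month differences was not tested, and with 1 library per genotype it cannot be told apart from genotype.

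Receptors of the same peptides also had unequal values in that pair. Cckbr, the main brain receptor for cholecystokinin, was at 1.33 FPKM in WT and 20.4 in the library labelled KO, Npy1r at 0.816 and 15.01, Sstr2 at 1.92 and 13.7, and Sstr4 at 1.59 and 14.7. Vipr1 was at 1.19 and 7.32, whereas Vipr2, the second receptor for VIP, was at 5.19 and 0.28. Crhr1 was at 42.8 and 11.6. Among the processing genes Pcsk1 was at 6.13 and 27.9, Pcsk2 at 35.0 and 118, and Crhbp, which encodes the binding protein for corticotropin-releasing hormone, at 0.74 and 8.19.

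Whether the difference between KO and WT depends on age was tested in 1 limma fit of all 8 libraries, which takes the single 4-month libraries to vary like those of 1 month. It compares those 2 libraries, 1 of which goes against its tissue label, so genotype and content cannot be told apart. The KO against WT difference at 4 months exceeded that at 1 month by 4.51 on the log2 scale for Cck (SE 0.55; adjusted p = 0.00638), by 4.42 for Npy (SE 0.51; adjusted p = 0.00526), by 2.93 for Vip (SE 0.43; adjusted p = 0.0114) and by 2.27 for Sst (SE 0.45; adjusted p = 0.0255), in limma with Benjamini-Hochberg adjustment. These 4 of 10 were called higher, against 6.98% of all genes higher and 5.81% lower. Over 9 or 10 alternative settings the adjusted p ran from 0.00412 to 0.0232 for Cck, from 0.00343 to 0.0214 for Npy, from 0.00453 to 0.0364 for Vip and from 0.00123 to 0.0668 for Sst. The other 6 were not called, and for Penk, Adcyap1 and Nts the estimates were 0.03, -0.09 and -0.12, with 95% intervals of -0.43 to 0.49, -0.63 to 0.46 and -0.91 to 0.67. The test rests on the library labelled KO at 4 months and cannot be run without it.

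In the same test, among the receptors, limma called Cckbr (2.65 on the log2 scale, adjusted p = 0.0121) and Npy1r (2.75, 0.0073) higher and Vipr2 lower (-2.40, 0.0144). Sstr4 and Vipr1 were also past the threshold, but they reached a mean of 1 FPKM only through the library labelled KO at 4 months, so they had to differ there and are not counted. Of the 17 processing genes 5 were called, all higher, and these were Chgb, Pcsk2, Cpe, Pcsk1 and Ptprn2, with values of 1.20 to 2.21. Of 13 other precursors tested, Grp, the precursor of gastrin-releasing peptide, was called higher (1.73, adjusted p = 0.0497, limma) and Calca and Npb lower (-4.28 and -1.54). The receptors tested numbered 17, Sstr4 and Vipr1 among them. Beside the calls of these lists stand the shares of all genes given above for this test, 6.98% higher and 5.81% lower. For age with genotype as a second term, limma called Ptprn higher at 4 months (1.09, adjusted p = 0.0248), where 1.13% of all genes were called higher. Sstr4 passed there too, again through that library alone.

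Age itself gave no call among the 10 when all 8 libraries were fitted with genotype as a second term, where 3.24% of all genes passed in limma (1.13% higher and 2.11% lower). At an unadjusted p under 0.05, Pdyn and Vip were higher at 4 months and Penk and Nts lower, against 7.81% and 16.9% of all genes. The log2 differences of Vip and Pdyn were 1.61 and 1.00 with all 8 libraries, 0.14 and 0.42 without the library labelled KO at 4 months, and 3.07 and 1.57 without the WT library of that age (adjusted p = 0.0016 and 0.0391, limma). Over all alternatives the adjusted p ran from 0.0016 to 0.797 for Vip and from 0.0391 to 0.523 for Pdyn. Penk was at -0.50 (adjusted p = 0.0586) and was called lower in 3 of 15 alternatives, with adjusted p from 0.0356 to 0.145 in limma. Without the library labelled KO at 4 months, the comparison rests on 1 WT library and Npy was called lower, by 1.98 on the log2 scale (log2 difference -1.98, adjusted p = 0.0253, limma), where 12.8% of all genes were called. Without the WT library of 4 months Npy was instead called higher, with a log2 difference of 2.44 (adjusted p = 0.00605, limma), and over all alternatives its adjusted p ran from 0.00605 to 0.967. The log2 differences of Sst and Cck without the library labelled KO were -1.23 and -1.49 (adjusted p = 0.0507 and 0.0518, limma), and over all alternatives their adjusted p ran from 0.0361 to 0.997 and from 0.00401 to 0.738.

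The profiles of the 10 genes over the 8 libraries were compared with those of the other genes of at least 1 FPKM by Pearson's r of log2(FPKM + 1), as a description of 14918 genes measured in the same 8 libraries. Vip was most like Camkv, Gpr83 and Lmo4, with r of 0.997, 0.996 and 0.995. Cck was most like Syt1 (0.994), Sst like AK044503 (0.992), Npy like Ap2b1 (0.983) and Pdyn like Lrrc8c (0.992). Crh was most like Col11a1 (0.994), Penk like Me2 (0.993), Tac1 like Lyrm7 (0.990), Adcyap1 like Pir (0.9754) and Nts like Hcls1 (0.978). The mu opioid receptor gene Oprm1 was the third gene in likeness to Nts, with r of 0.973. Within the set, Npy and Cck had r of 0.97, Sst and Tac1 0.94, Adcyap1 and Nts 0.92, and Pdyn and Vip and Penk and Nts 0.88 each, while Cck and Crh had -0.24 and Npy and Crh -0.12.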

How the data were processed

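RNA labelled as mouse cerebellum was analysed in 8 of the 37 samples of the series, and the content of 1 library goes against that label. The 29 chromatin samples were not analysed here. The authors deposited 1 table of FPKM values with 1 column per library. TopHat2 2.1.0, Bowtie 1.1.2, Cuffdiff and build mm9 are named, per the submitters' processing notes. The annotation, strand setting and further scaling were not stated there, so overlapping genes cannot be told apart. All columns were mapped by title, and 1 row that repeated column names was removed. Relative depth was read from genes under 0.3 FPKM.

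Tests used limma 3.58.1 (eBayes with trend) in R 4.3.3 on log2(FPKM + 1), a scale that understates differences of low genes, in genes averaging 1 FPKM or more. P-values were adjusted over all genes tested by Benjamini-Hochberg, with a threshold of 0.05. The scripts were tested on simulated data. Members and gene lists were chosen with earlier results of these data known. Of 189 listed symbols 2 were absent. Named genes were the 10 members, up to 6 genes per list with the smallest p at 1 month, genes past the threshold, receptors of the members and the markers of highest level, with others picked for a described pattern after their values were seen. Alternatives were another pseudocount and filter, other scalings, no trend, array weights, the replicate block, and leaving out libraries.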

Additional observations from a re-analysis of the deposited data

Results flagged for a closer look

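For 4 genes the difference between the 2 libraries of 4 months was unlike that between KO and WT at 1 month, in a limma fit that takes all its spread from the 1-month libraries. The difference at 4 months minus that at 1 month was 4.51 on the log2 scale for Cck, 4.42 for Npy, 2.93 for Vip and 2.27 for Sst. For Cck and Npy the 1-month groups overlapped, so no direction was shown at that age. Each value rests on 1 library per genotype at 4 months, and the library labelled KO holds 150 FPKM of forebrain cortex markers where the WT library holds 2.43. Genotype and content cannot be told apart there.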

How the results depend on the processing

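Fitted over all 8 libraries with an age term, Npy and Cck turned positive at 1 month (0.72 and 0.54). The other 8 genes stayed positive under each of 12 to 15 alternatives. Of these, Pdyn and Vip had WT means under 1 FPKM, passed the main filter through KO and had to be higher there. Their signs under alternatives with that filter cannot be taken as support. None of the 10 was called except with array weights, which called all 10, and without KO replicate 3, which called 7. The count of genes called at 1 month was 9, and leaving out 1 library gave 1 to 5140. It was 2 with no filter, 18 with libraries shifted to 1 median (15 higher, 3 lower, against 7 and 2), 4 without trend, 8193 with array weights and 0 with all 8 libraries and age. Whether the replicate numbers pair the samples cannot be settled from so few libraries. Deviations of same-numbered WT and KO libraries correlated at 0.17, 0.03 and 0.04. KO replicates 1 and 3 correlated best with the same number, and KO replicate 2 with another. The replicate block gave 4 genes.

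For age the count was 483, and leaving out 1 library gave 1 to 2376. It was 98 with no filter, 315 with libraries shifted to 1 median (216 higher, 99 lower, against 168 and 315), 295 without trend and 1749 in the 4 WT libraries, an alternative added after seeing the data. Quantile normalization gave 220 higher and 162 lower. Directions reversed for Sst (0.016) and Adcyap1 (0.024) with the shift, for Adcyap1 with quantile normalization (0.0068), and for Npy (-1.98), Cck (-1.49) and Crh (0.50) in the 4 WT libraries. Leaving out 1 library gave -1.98 to 2.44 for Npy, -1.23 to 1.05 for Sst, -1.49 to 3.02 for Cck, -0.93 to 0.20 for Tac1 and -0.88 to 0.50 for Crh, with signs set by which 4-month library was left out. For the age difference of the KO effect the count was 1909, and 662 to 3747 without 1 library of 1 month. Sst lost its call with no filter and without WT replicate 1 or 2 (adjusted p = 0.0517, 0.0668 and 0.0647, limma), and Penk reversed without KO replicate 3 (-0.045 to 0.074 over the libraries left out). The cause was not tested. Absolute depth is unknown, which limits values under about 1 FPKM.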

Other observations

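Some precursors outside the 10 genes were found in few libraries, and these were picked after their values were seen. Cort, the precursor of cortistatin, a relative of somatostatin known from cortical interneurons, was at 6.84 FPKM in the library labelled KO at 4 months, at 0.33 in the library labelled KO replicate 3 and at 0 in the other 6. Rln3, the precursor of relaxin-3, a peptide of the nucleus incertus in the brainstem, read 2.63 FPKM in KO replicate 1 and 3.29 in KO replicate 2, at 0.32 in WT at 4 months and at 0 in the other 5 libraries. Uts2, the precursor of urotensin 2, known from motor neurons of the brainstem and spinal cord, was at 4.78 FPKM in the library labelled KO replicate 3 and at 1.20 or less elsewhere. Calca, which encodes calcitonin and CGRP, read 0.95, 0.87 and 3.18 FPKM across WT and 9.44, 9.43 and 8.88 across KO at 1 month. At 4 months it was at 4.70 in WT and 0.21 in the library labelled KO. The difference at 4 months minus that at 1 month was -4.28 on the log2 scale. It rests on 1 library per genotype at 4 months, and the content of the library labelled KO goes against its tissue label. Genotype and content cannot be told apart there.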
